A study of Mus musculus with 6 samples.

Results

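MiR-451, miR-486 and miR-144 are miRNAs of the red cell lineage, and their levels were followed in the renal cortex of mice given a diet low in sodium together with captopril and of untreated mice. The members were chosen by name: a row of the deposited value table, and the experimental spots of the 6 spot tables, had to carry mmu-miR-451, mmu-miR-486 or mmu-miR-144. All 3 were found among the mature mouse miRNAs on the array, of which 117 were above background in every sample and 354 in none. Each member had 5 spots per sample, so 15 of the 2995 experimental spots of a sample belonged to them. No probe for another arm of their hairpins was on the array.

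The treated group held 3 C57Bl6 mice that received food with 0.05% sodium and water with captopril at 0.5 g/L for 10 days. Captopril blocks angiotensin converting enzyme, and the regimen is known to raise renin expression in the kidney. The control group held 3 untreated C57Bl6 mice. Treated replicate 1 was a female of 5 months, treated replicates 2 and 3 were males of 3.5 months, and the controls were 2 males (replicates 1 and 2) and 1 female (replicate 3) of 3.5 months. The labels name no engineered allele. Small RNA of each cortex was stained with Cy5 in treated replicates 1 and 3 and control replicate 2, and with Cy3 in treated replicate 2 and control replicates 1 and 3. The groups were thus not balanced for dye. The comparison asks which cortical miRNAs differ under sodium restriction with captopril.

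MiR-144 and miR-451 are cut from a single primary transcript, which the transcription factor GATA1 switches on as red cell precursors mature. MiR-451 is unusual in that the Argonaute protein Ago2, and not Dicer, slices its short hairpin, and its repression of the adaptor protein 14-3-3 zeta helps to shield red cells from oxidative stress. MiR-486 is made from within the gene of ankyrin-1, a protein of the red cell membrane skeleton, and is abundant in red cells and in striated muscle. Mature red cells keep these miRNAs although they have no nucleus, so a piece of kidney also carries the miRNAs of the blood in its vessels. The sources used here do not say whether the kidneys were flushed of blood. In bulk cortex, more cells of a type and more RNA per cell cannot be told apart.

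The 3 target sequences that the deposited tables give for the probes are shown first, because a probe reports only what pairs with it. Letters run 5′ to 3′, and the capitals mark the seed, bases 2 to 8, with which a miRNA finds its targets.
miR-451: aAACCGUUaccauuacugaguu
miR-486: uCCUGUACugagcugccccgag
miR-144: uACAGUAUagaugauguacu

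The 3 seeds differ from one another, and no other miRNA on the array shared any of them. The nearest relatives of miR-144 were miR-101a and miR-101b, which have the same bases 2 to 7 and differ in the last base of the seed. They are shown for that reason.
miR-101a: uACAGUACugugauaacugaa
miR-101b: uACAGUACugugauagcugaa

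Outside the seed these were unlike miR-144, and the longest run of letters that they shared with it was 7. The longest run shared with any other probe's target was 8 letters for miR-451 (with miR-26b*), 10 for miR-486 (with miR-24-1* and miR-24-2*) and 8 for miR-144 (with miR-592). The members also differed in base composition. G and C made up 8 of 22 bases in miR-451, 14 of 22 in miR-486 and 6 of 20 in miR-144.

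For 2 of the 3 members the target was identical to a mature miRNA in the RefSeq sequence table of GRCm38.p6. MiR-451 is mmu-miR-451a there, at chr11:78073186-78073207 on the plus strand, and miR-144 is mmu-miR-144-3p, at chr11:78073047-78073066 on the plus strand. No protein-coding gene of that annotation overlaps either hairpin, and the miRNA gene Mir451b overlaps that of miR-451a. The 2 hairpins are 99 bases apart. They are printed with the mature miRNA in capitals, since they show how the partners of the cluster differ: the mature miR-451 runs from base 17 to base 38 of its 72-base hairpin, across the loop, whereas miR-144 occupies bases 43 to 62 of 66, in the 3′ arm.
Mir451a: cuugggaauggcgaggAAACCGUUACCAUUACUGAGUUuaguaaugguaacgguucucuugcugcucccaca
Mir144: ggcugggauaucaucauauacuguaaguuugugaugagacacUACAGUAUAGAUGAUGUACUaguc

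In the RefSeq gene table of the same assembly, Mir486 lies within Ank1, the ankyrin-1 gene, and also overlaps the miRNA gene Mir3107 and the long non-coding gene Gm15816.

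MiR-451 and miR-486 stood above background in all 6 samples, and miR-144 did so in none. For a call above background, the mean log2 intensity of the 5 spots had to exceed the mean of the 669 empty spots of the same sample by more than 3 SD. The 197 miRNAs that met this in at least 3 samples were tested, so 2 of the 3 members entered the test.

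The spots of miR-451 were bright on every array. They averaged 1968 ± 180.0, 1661 ± 94.8 and 1725 ± 502 intensity units in treated replicates 1, 2 and 3, against 2014 ± 153, 295 ± 45.0 and 757 ± 134 in control replicates 1, 2 and 3 (SD over 5 spots, before any correction). Before normalisation the groups thus overlapped, since control replicate 1 read as high as the treated samples. The empty spots were far brighter in Cy3, with medians of 459, 289 and 219, than in Cy5, with medians of 37.6, 34.4 and 51.2, so raw intensities of different dyes cannot be set side by side. As a multiple of the median empty spot of its own sample, miR-451 read 52.3, 3.62 and 50.2 in treated replicates 1, 2 and 3, against 6.96, 5.77 and 3.46 in control replicates 1, 2 and 3. The only Cy5 control lay far below both Cy5 treated samples on this measure. The only Cy3 treated sample lay between both Cy3 controls. The median tested miRNA read 5.34, 1.37 and 4.87 in treated replicates 1, 2 and 3, against 2.11, 1.72 and 2.01 in control replicates 1, 2 and 3. The gap within Cy5 was thus one of the arrays' typical miRNA as well.

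The third miR-451 spot was dim in both samples numbered 3. It read 44.7% of the mean of the other 4 spots in treated replicate 3 and 64.1% in control replicate 3, against 92.8% in treated replicate 2, 100.1% in treated replicate 1, 87.5% in control replicate 2 and 105.6% in control replicate 1. These 2 samples carried opposite dyes.

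The spots of miR-486 averaged 776 ± 39.8, 1348 ± 89.4 and 395 ± 38.9 units in treated replicates 1, 2 and 3, against 756 ± 58.8, 237 ± 32.4 and 321 ± 13.2 in control replicates 1, 2 and 3 (SD over 5 spots). They came to 20.6, 2.94 and 11.5 times the median empty spot in the treated samples, against 2.61, 4.63 and 1.47 times in the controls. Control replicate 3 was the dimmest of the 6 on this measure, yet even there the probe stood 7.60 SD above the empty spots. Within each dye, every treated sample lay above every control on this measure, which no normalisation between samples had touched. In Cy5 the median tested miRNA did so too (5.34 and 4.87 against 1.72), so that gap is not particular to miR-486. In Cy3 the median was 1.37 in treated replicate 2, against 2.11 and 2.01 in control replicates 1 and 3.

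MiR-144 could not be told from an empty spot. Its 5 spots averaged 1.05, 0.996 and 1.01 times the median empty spot in treated replicates 1, 2 and 3, against 1.07, 0.945 and 1.07 times in control replicates 1, 2 and 3. Its distance from the mean of the empty spots ran from -0.053 to 0.59 SD in treated samples and from -0.64 to 1.41 SD in controls, all short of 3 SD. No fold is given for it, because neither group had a level above background.

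**Figure D1:**
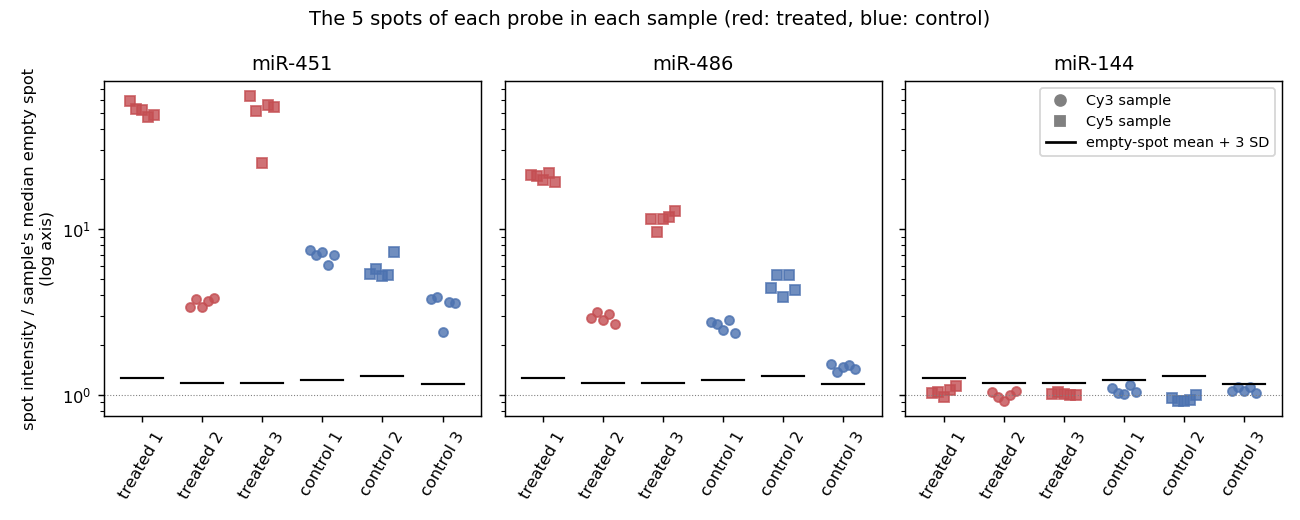
Intensity of each of the 5 spots of miR-451, miR-486 and miR-144, divided by the median empty spot of the same sample (log axis), for treated replicates 1 to 3 (red) and control replicates 1 to 3 (blue). Circles are Cy3 samples, squares Cy5 samples, and the black line is the background threshold. MiR-451 and miR-486 lie above the line in all 6 samples, and miR-144 lies at 0.945 to 1.07 times the empty spot on average.

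Few AU-rich probes gave a signal on these arrays. Of the 16 miRNAs with a GC content no higher than the 30.0% of miR-144, 14 were above background in no sample and 1 was tested. Of the 583 with a higher GC content, 340 were above background in no sample and 196 (33.6%) were tested. Whether base composition bears on the reading of miR-144 was not tested. The seed relatives miR-101a and miR-101b were each above background in 4 of 6 samples. MiR-101a lay at a log2 normalised intensity of 8.08 ± 1.25 in treated and 8.37 ± 1.74 in control samples, and miR-101b at 7.04 ± 0.31 and 7.26 ± 0.45 (SD, n = 3 each).

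After background correction and quantile normalisation, which makes the distribution of all the array's miRNAs the same in every sample, miR-451 was higher in each treated mouse than in any control. Its log2 normalised intensity was 10.64, 10.20 and 10.64 in treated replicates 1, 2 and 3, against 9.92, 9.92 and 8.72 in control replicates 1, 2 and 3. Equal values arise because quantile normalisation gives the same level to probes of equal rank. The groups did not overlap, and the lowest treated sample was the Cy3 one. Such a separation with treated samples higher was seen in 5 of the 197 tested miRNAs (2.54%), and with treated samples lower in 4 (2.03%).

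The mean level of miR-451 was 10.49 ± 0.25 in treated and 9.52 ± 0.70 in control samples (SD, n = 3 each). In limma with a term for dye, fitted over all 197 miRNAs, treated minus control was 0.80 on the log2 scale (SE 0.38, 95% interval -0.14 to 1.74), or 1.74-fold with an interval from 0.906 to 3.34. The difference did not pass, with an unadjusted p of 0.0823 and an adjusted p = 0.995 (Benjamini-Hochberg over the 197). By the same test 0 of the 197 miRNAs (0%) passed an adjusted p of 0.05, and 1 (0.508%) had an unadjusted p under 0.05. MiR-451 had the second smallest p of all. Its difference was larger than that of most miRNAs: 3 of 197 (1.52%), itself and miR-486 included, were at least as far above 0, and the median over all tested was -0.01.

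The difference of miR-451 had the same sign within each dye. It was 0.88 within Cy3, where treated replicate 2 was set against control replicates 1 and 3, and 0.72 within Cy5, where treated replicates 1 and 3 were set against control replicate 2. Of the 197 miRNAs, 19 (9.64%) were higher in treated samples within both dyes. Between samples of the same replicate number, treated minus control was 0.72, 0.28 and 1.92 for numbers 1, 2 and 3, and 28 miRNAs (14.2%) were higher in all 3 such pairs. The largest of these differences came from control replicate 3, the lowest of all 6. Without that mouse the difference was 0.56 and without control replicate 1 it was 1.04, the extremes when 1 sample was left out. In a fit with replicate number as a block in addition to dye, the difference stayed at 0.80. It could not move, since each number pairs a treated with a control sample of the other dye. The SE of this fit was 0.29. MiR-451 had an unadjusted p of 0.0402 and an adjusted p = 0.625 there in limma. With the block, 10 of the 197 miRNAs (5.08%) were higher with an unadjusted p under 0.05.

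MiR-486 was on average also higher in treated mice, but its groups overlapped. Its log2 normalised intensity was 9.55, 9.72 and 8.84 in treated replicates 1, 2 and 3, against 8.14, 9.47 and 7.22 in control replicates 1, 2 and 3. Control replicate 2 thus lay above treated replicate 3, and the controls covered a wider range than the treated samples. The means were 9.37 ± 0.46 in treated and 8.28 ± 1.13 in control samples (SD, n = 3 each).

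In limma with the dye term, the treated minus control difference of miR-486 was 0.89 (SE 0.61, 95% interval -0.65 to 2.42, or 1.85-fold with an interval from 0.637 to 5.35), with an unadjusted p of 0.203 and an adjusted p = 0.995. No other tested miRNA lay as far above 0 (1 of 197, or 0.508%, being miR-486 itself). The difference was 2.04 within Cy3 and -0.27 within Cy5, so the dyes gave opposite signs. Between samples of the same number it was 1.41, 0.26 and 1.62. Without treated replicate 2, the only treated sample in Cy3, the dye-adjusted difference of miR-486 was -0.28, and without control replicate 2, the only control in Cy5, it was 2.13. Without control replicate 3 it was 0.49. With the block, the unadjusted p was 0.00391 and the adjusted p = 0.287 in limma, in a fit that left 1 residual degree of freedom per miRNA and so leaned on the spread pooled over miRNAs.

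**Figure D2:**
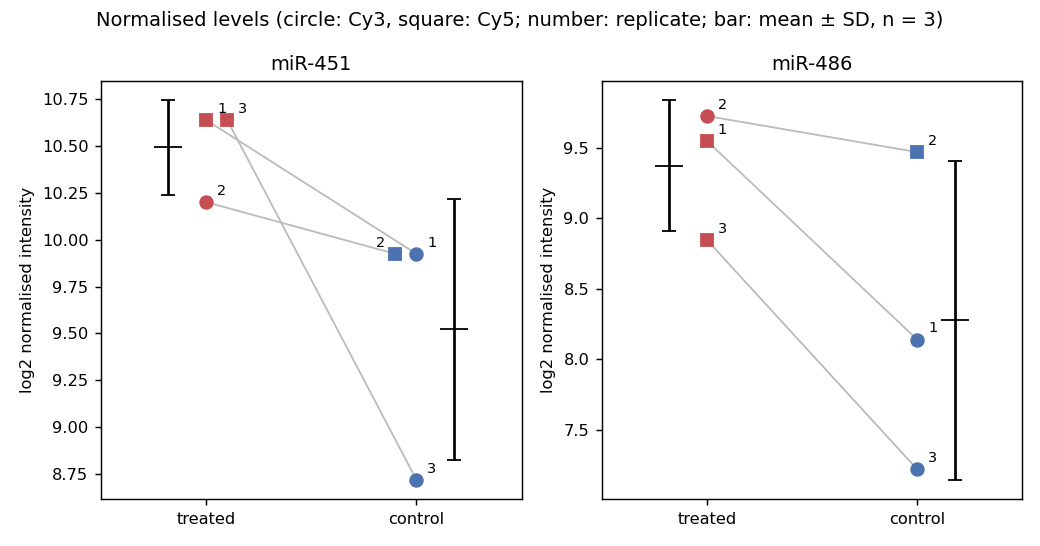
Log2 normalised intensity of miR-451 and miR-486 in treated (left, red) and control (right, blue) samples, with grey lines joining samples of the same replicate number and bars for the mean ± SD of 3 samples. MiR-451 does not overlap between groups (10.20 to 10.64 in treated, 8.72 to 9.92 in control), whereas miR-486 does (8.84 to 9.72 in treated, 7.22 to 9.47 in control).

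The spread over the spots of a probe was taken apart from the spread between mice. Over the 5 spots of a probe the SD on the log2 scale ran from 0.083 to 0.53 for miR-451 and from 0.060 to 0.20 for miR-486. The highest value for miR-451 was that of treated replicate 3, which held a dim spot. The SD between mice was 0.25 in treated and 0.70 in control samples for miR-451, and 0.46 in treated and 1.13 in control samples for miR-486, against a median within-group SD of 0.34 over all tested miRNAs. The SD over spots is of single spots before any correction. The SD between mice is of corrected and normalised means of 5 spots. The sizes of these SDs can therefore not be compared with each other.

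The authors' processed intensities, deposited as whole numbers, gave the same order for miR-451. Its value was 1767, 1182 and 1721 in treated replicates 1, 2 and 3, against 965, 950 and 368 in control replicates 1, 2 and 3. The groups did not overlap, which on these values held for 8 of the 197 miRNAs with treated samples higher (4.06%). For miR-486 the values were 711, 872 and 417 in treated samples, against 236, 746 and 86 in controls, and the groups overlapped. For miR-144 they were 9, 16 and 11 in treated samples, against 9, 7 and 14 in controls, all below the medians of 17 to 19 over all miRNAs of a sample. The means were 1557 ± 325 in treated and 761 ± 340 in control samples for miR-451, a ratio of 2.05, and 667 ± 231 and 356 ± 346 for miR-486, a ratio of 1.87 (SD, n = 3 each). The scaling and centring that the authors applied to these values stay unknown.

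**Figure D3:**
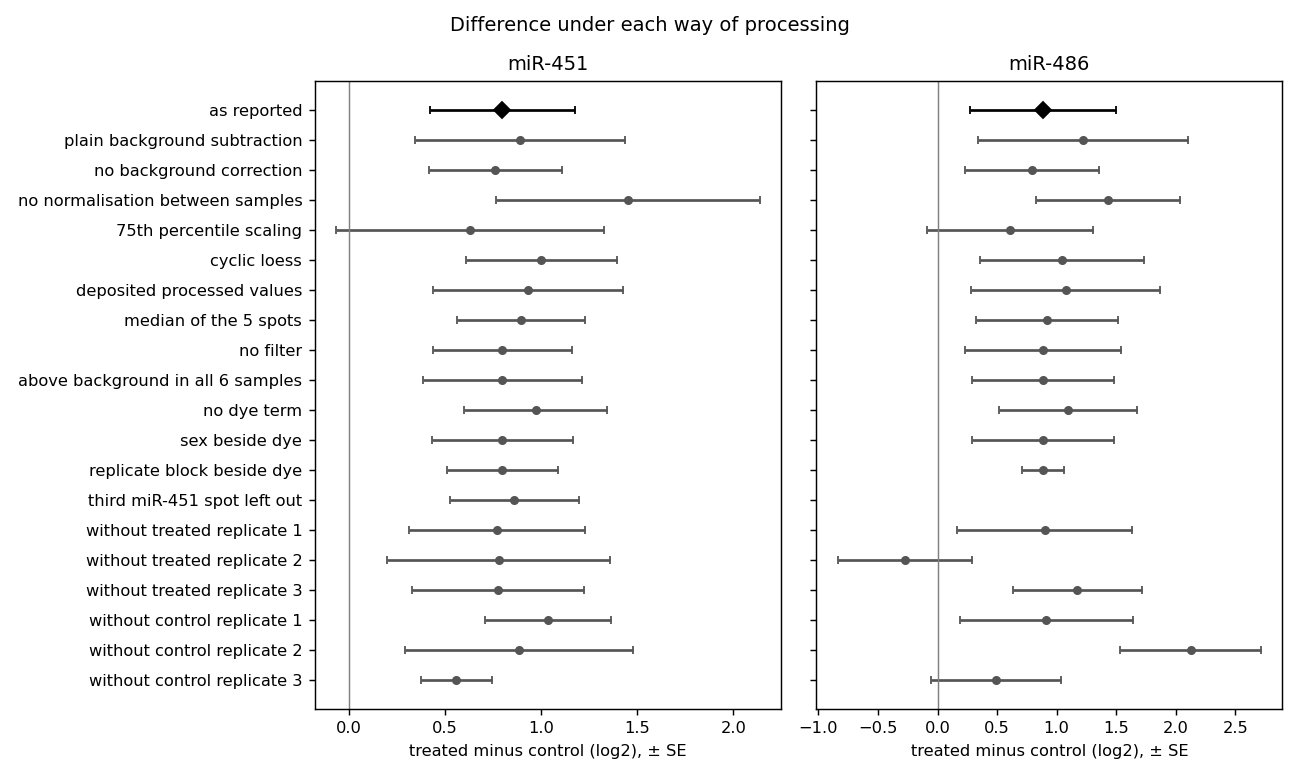
Treated minus control difference (log2) of miR-451 (left) and miR-486 (right) as reported and under each other way of processing or with 1 sample left out, with bars for the SE. MiR-451 stays above 0 throughout (0.56 to 1.45), and miR-486 is lowest without treated replicate 2 (-0.28) and highest without control replicate 2 (2.13).

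The array cannot say how miR-144, the cluster partner of miR-451, responded. The log2 intensity of miR-451 minus that of miR-144 in the same sample was 4.30, 3.87 and 4.29 in treated replicates 1, 2 and 3, against 3.58, 3.58 and 2.40 in control replicates 1, 2 and 3. It averaged 4.15 ± 0.25 in treated and 3.19 ± 0.68 in control samples (SD, n = 3 each), a difference of 0.96 that did not overlap between groups. An exact two-sided permutation test gave p = 0.1, the smallest that 3 against 3 samples allow. Since miR-144 read as background, with normalised levels of 6.34 to 6.35 in treated and 6.32 to 6.34 in control samples, nearly all of this difference is that of miR-451 itself. It is no test of unequal change between the partners, and it does not rank their abundance, because different probes differ in brightness.

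The levels of miR-451 and miR-486 were set against each other across mice. Over the 6 samples Pearson's r was 0.783 (exact permutation p = 0.0722, adjusted over 2 coefficients 0.144) and Spearman's rho was 0.618 (exact permutation p = 0.244, adjusted 0.244). The relation rested on control replicate 3, in which both were lowest. Without that mouse, and with the levels of the others as normalised together with it, r was 0.249 (n = 5). Without it and treated replicate 1, the 2 samples farthest from the median of miR-451, r was 0.064, and with treated replicate 3, which has the same miR-451 level, left out in place of treated replicate 1, it was 0.507 (n = 4 each). Each dye held only 3 samples, too few for a value within a dye.

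**Figure D4:**
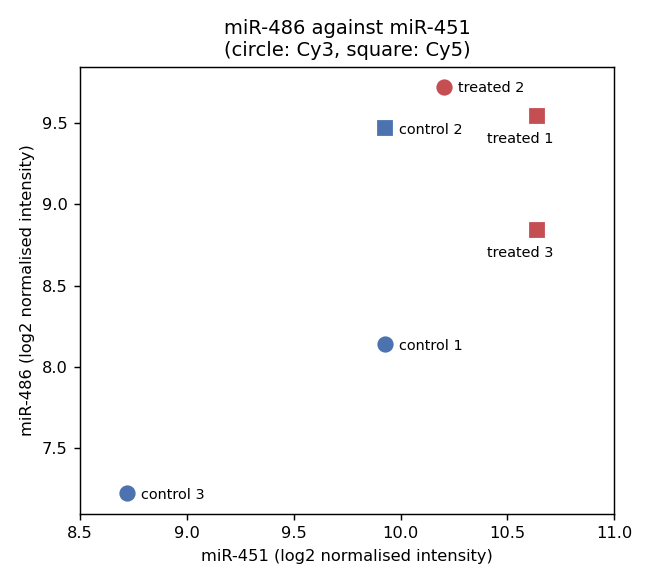
Log2 normalised intensity of miR-486 against that of miR-451 in the 3 treated (red) and 3 control (blue) samples, circles for Cy3 and squares for Cy5. Control replicate 3 is lowest on both axes, at 8.72 and 7.22, and the other 5 samples show a weaker relation (r = 0.249).

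The miRNAs whose levels followed miR-451 most closely over the 6 samples were not the other members. By Pearson's r they were miR-195 (0.964), miR-21 (0.962), let-7a (0.891), let-7c (0.881) and miR-139-5p (0.874), and miR-486 came 15th. For miR-486 they were miR-92b (0.989), miR-125a-5p (0.974), miR-10b (0.962), let-7c (0.957) and let-7d* (0.933). These values are descriptions over 6 points and carry no test. All 9 of these miRNAs were lowest in control replicate 3, as were 54 of the 197 tested (27.4%). For the 9 this follows largely from how they were picked, since miR-451 and miR-486 were themselves lowest there. Quantile normalisation gives that sample the same distribution as the others, so it was not low as a whole. Other miRNAs were highest in it, such as miR-26a (15.45) and miR-30c (15.36).

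Other miRNAs of the red cell lineage did not pass in either direction. Of 10 miRNAs listed as rich in erythroid cells or red cells, 8 were tested and 0 rose or fell at an adjusted p of 0.05 in limma, nor did any have an unadjusted p under 0.05. Their median difference was 0.20, against -0.01 over all tested miRNAs, with 5 above 0 and 3 below. MiR-15a and miR-16, which share a hairpin cluster and restrain the cell cycle, lay at 10.97 ± 0.44 and 13.40 ± 0.41 in treated samples, against 10.32 ± 0.63 and 13.09 ± 0.48 in controls (SD, n = 3 each). Their differences were 0.72 and 0.32, and that of their relative miR-15b was 0.53. MiR-92a, of the miR-17 to miR-92 cluster, differed by 0.30, its relative miR-25 by 0.10, miR-183 by -0.11, miR-22 by -0.24 and miR-182 by -0.52. These miRNAs are also made by many other tissues. MiR-96 was above background in no sample, and miR-210, which hypoxia induces, in 1.

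Of 6 miRNAs listed as declining while red cell precursors mature, 5 were tested and 0 passed in either direction. Their median difference was -0.17, with 2 above 0 and 3 below. MiR-221 and miR-222, which hold back the stem cell factor receptor Kit, differed by -0.20 and -0.24, and miR-24 by -0.17. MiR-150 and miR-155, both also markers of lymphoid cells, differed by 0.46 and 0.02. MiR-155 had an SE of 1.05, so little can be read from it.

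Markers of white cells and platelets were listed as well, though whether they follow the blood in the tissue was not tested. Of the 6 on this list, 3 were tested and 0 passed, with a median difference of 0.02. MiR-142-3p and miR-142-5p were above background in no sample and miR-223, the miRNA of granulocytes and platelets, in 2. MiR-150 lay at 9.54 ± 0.56 in treated and 9.01 ± 0.70 in control samples, and miR-146a at 9.80 ± 0.13 and 9.82 ± 0.48 (SD, n = 3 each). Their differences were 0.46 and -0.13. The summed processed intensity of the 6 ran from 1297 to 2632 in treated and from 789 to 2638 in control samples. This sum was lowest in control replicate 3 (789), and treated replicate 3 came next (1297). The summed processed intensity of the 10 erythroid-associated miRNAs was 20504, 19463 and 23053 in treated replicates 1, 2 and 3, against 14809, 16612 and 18181 in control replicates 1, 2 and 3. By normalised level, 0 of the 8 tested miRNAs of this list separated the groups. MiR-16, also made by many other tissues, had the highest normalised level of the list in every sample, so it weighs heavily in the sum. What part blood content had in the levels of miR-451 and miR-486 was not tested.

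**Figure D5:**
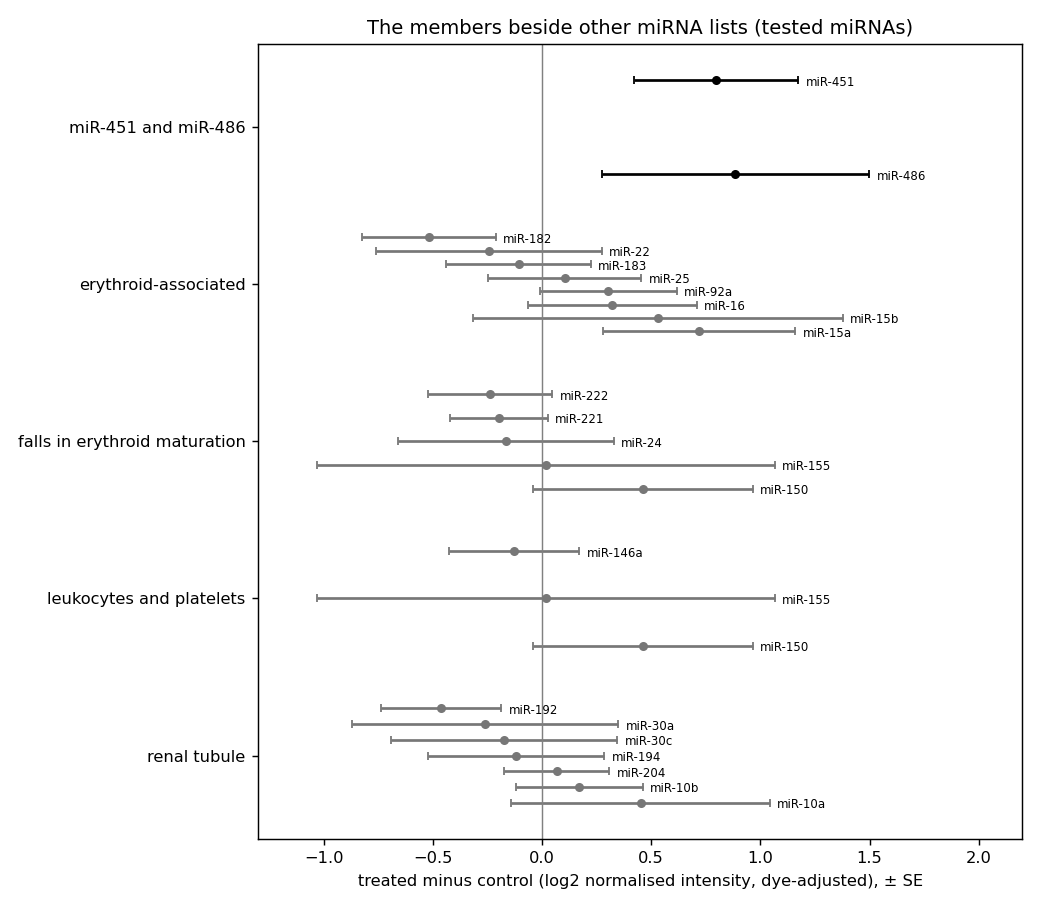
Dye-adjusted treated minus control differences (log2, bars for the SE) of miR-451 and miR-486, above those of the tested miRNAs of 4 lists. The 2 members lie at 0.80 and 0.89, and the medians of the erythroid-associated, maturation, white cell and platelet, and renal tubule lists are 0.20, -0.17, 0.02 and -0.12.

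Most listed markers of the renal tubule were read in the samples. Of 8 markers of the renal tubule, 7 were tested, miR-215 was above background in no sample and 0 passed, with a median difference of -0.12, 3 above 0 and 4 below. MiR-10b lay at 13.83 ± 0.17 in treated and 13.60 ± 0.39 in control samples, and miR-192 at 12.67 ± 0.18 and 13.19 ± 0.34 (SD, n = 3 each). The differences were 0.45 for miR-10a, 0.17 for miR-10b, -0.12 for miR-194, -0.17 for miR-30c, -0.26 for miR-30a and -0.46 for miR-192. MiR-204 was above background in only 3 samples, at 6.61 ± 0.19 in treated and 6.54 ± 0.18 in control samples (SD, n = 3 each). Its difference was 0.07. Of 8 markers of liver, striated muscle and brain, 3 were above background in no sample and 2, the liver miRNA miR-122 and the brain miRNA miR-9, in 3 samples, and the summed processed intensity of the 8 was 193 to 239 in treated and 134 to 617 in control samples. Striated muscle also makes miR-486. Its markers miR-133a, miR-206 and miR-208a were above background in 1, 1 and 0 samples, and miR-1 in 2. Control replicate 1, which gave the sum of 617, was highest for miR-1, miR-133a and miR-206, at log2 levels of 8.96, 6.82 and 6.87. In the other samples miR-1 lay at 6.44 to 6.95.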

How the data were processed

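Each of the 6 samples has a spot table whose values, per the file headers, are the mean intensity of a spot on a linear scale. The empty spots lie well above 0, so no background had been subtracted by the authors. Per the labels' protocols, poly(A)-tailed small RNA was ligated to a tag for staining in Cy3 or Cy5 and hybridised by a service provider. A deposited table of processed intensity (each column's median is 17 to 19) served as an alternative. Each column followed the spot intensity of its own sample most closely over tested miRNAs (Spearman's rho 0.995 to 0.999, at most 0.965 with another), so it is not turned round. A linear scale is taken from its whole numbers, of the size of the spot intensities. Its normalisation was not given in the sources used here.

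In R 4.3.3 with limma 3.58.1, background was corrected by normexp, fitted to every spot with an offset of 50, log2 values of the 5 spots were averaged, and samples were quantile-normalised over all probes. Groups came from the labels. Treated and control samples were compared with lmFit and eBayes, two-sided, with a dye term, and p-values were adjusted over the 197 tested miRNAs. The fit was tested on simulated data. The number of arrays limits the precision, and the series text describes the samples as individual mice.

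Deviations from the group means of same-numbered samples correlated at 0.447, 0.460 and 0.781. Each exceeded 0.1, which was taken as a sign of pairing, although treated replicate 1 with control replicate 2 (0.246) and treated replicate 2 with control replicate 1 (0.256) did so too. Deviations from a group mean cancel out within the group, so these correlations are tied to one another and cannot all share a sign. They do not establish a pairing, and the labels name no pairs. The replicate block was thus chosen from these same data. The fit described has no pair term, and a fit with the replicate number as a block is given beside it. The members, the lists and the tests were chosen with earlier results of these data known. Named miRNAs are the members, the 5 most alike to each tested member, and listed miRNAs above background in all 6 samples. The others named from the lists, and the seed relatives, were named after their values were seen. Alternatives are given in the closing section.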

Additional observations from a re-analysis of the deposited data

How the results depend on the processing

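The difference of miR-451 lay above 0 in all 19 alternatives tried, from 0.56 to 1.45, with adjusted p from 0.625 to 1.000 in limma. A change of filter, or sex or the block added to the fit, cannot move that difference. The groups of miR-451 did not overlap in 17 alternatives. Where only the filter or the terms of the fit changed, the levels were the same, so this was fixed beforehand. Leaving out 1 sample was also unlikely to undo it. The groups overlapped with no normalisation between samples and with 75th percentile scaling. These 2 settings moved the median of all tested miRNAs to 0.29 and -0.53. Relative to that median miR-451 was 1.16 higher and miR-486 1.13 higher under both. These values had to be the same, since the scaling shifts all miRNAs of a sample alike. Leaving out 1 sample gave miR-451 0.56 to 1.04 and miR-486 -0.28 to 2.13. The other alternatives gave miR-486 0.61 to 1.43. Its sign turned in 1 alternative, without treated replicate 2 (-0.28). With the dye term, that fit compares 2 treated samples with control replicate 2. Its groups did not overlap in 2 of 18 alternatives. Leaving out the third miR-451 spot, an alternative chosen after seeing the data, gave 0.86. The replicate block changed no call. By design it leaves the differences of miR-451 (0.80) and miR-486 (0.89) as they were. For miR-451 minus miR-144, a dye term, also added after seeing the data, gave 0.79 in place of 0.96. The block beside dye cannot change that 0.79.

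The fitted difference of the miR-144 readings, all at background, was 0.0043. It became 0.10 with plain subtraction, -0.012 without normalisation, -0.83 under 75th percentile scaling, 0.46 with the deposited processed values and 0.057 with the median of the spots. Without 1 sample it ran from -0.00068 to 0.0084. MiR-451 minus miR-144 ran from 0.60 to 1.54, with exact permutation p from 0.1 to 0.4, and had no test with dye, sex or the block in the fit. The correlation of miR-451 with miR-486 ran from 0.251 (without control replicate 3, the other 5 samples normalised afresh) to 0.854.

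Under every alternative tried, limma gave 0 miRNAs with an adjusted p under 0.05. The count with an unadjusted p under 0.05 was 1. It became 2 with cyclic loess and with the median of the spots, 8 without a filter, 0 among miRNAs above background in all 6 samples, 3 without a dye term, 0 with sex beside dye and 15 with the replicate block, and it ran from 0 to 13 when 1 sample was left out. The cause of these shifts was not tested.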
